A study of Mus musculus with 4 samples.

Results

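In mouse embryonic stem cells (ESCs), 677 of the 2504 regions bound by REST (27.04%, exact 95% interval 25.3 to 28.8%) lay outside protein-coding genes and far from their promoters. These distal regions were defined by position alone: the midpoint of the region was more than 20 kb from every transcription start site (TSS) of a protein-coding transcript and inside the span of no protein-coding gene in the GENCODE M1 annotation of the mm9 assembly. Chromatin of wild type ESCs of the C57BL/6 strain, the N6 line, was crosslinked, immunoprecipitated with a rabbit polyclonal antibody against a C-terminal peptide of REST and sequenced. The cells had been grown with leukemia inhibitory factor on a layer of irradiated feeder fibroblasts and moved to gelatin before harvest. Of 4 samples in all, this library is described here through its list of bound regions, which are ordered by enrichment from rank 1, the most enriched, to rank 2504. Not analysed here were the input DNA and H3K27me3, which was profiled in the wild type line and in N8, a line that lacks REST.

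The library pools technical with biological replicates, so neither a region nor its rank has a replicate error, and the depth behind a region is unknown. Regions of 1 list are not replicates of a condition. For that reason no test was made, and counts are given with exact Clopper-Pearson 95% intervals and medians with binomial 95% intervals, both of which cover counting error over regions only. The other 1827 regions served for comparison, in particular the 496 that were as far from a TSS but inside a protein-coding gene and the 368 within 1 kb of a TSS.

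REST, also termed NRSF, is a zinc finger protein that silences neuronal genes in stem cells and in tissues outside the nervous system. It recruits the corepressors Sin3 and CoREST, and with them histone deacetylases and a histone demethylase, to a DNA element termed the RE1. An RE1 has a left and a right element that lie a fixed distance apart. REST is known to occupy many RE1s far from genes, and to control genes of neuronal microRNAs as well as genes that encode proteins.

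The left element was taken as TTCAGCACC, and the right element was read from the listed regions that were not distal, as the commonest base at each position below 377 exact left elements. The resulting RE1, with N for the 2 free bases, is shown because every class below is defined by it.
RE1 consensus: TTCAGCACCNNGGACAGCGCC
A full RE1 was allowed 5 mismatches over the 19 defined bases, and copies were counted as separate when their starts were more than 10 bases apart.

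The 4 distal regions with an RE1 that matched at all 19 bases are shown first. Capitals mark the left and the right element, and the coordinates are those of the element in mm9.
rank 258, chr2:29429290-29429310, plus strand: TTCAGCACCacGGACAGCGCC
rank 377, chr9:56586255-56586275, minus strand: TTCAGCACCacGGACAGCGCC
rank 574, chr2:92911997-92912017, minus strand: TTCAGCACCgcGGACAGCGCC
rank 1493, chr7:125144825-125144845, minus strand: TTCAGCACCagGGACAGCGCC
The nearest protein-coding genes were Rapgef1, which encodes a guanine nucleotide exchange factor, at 45.9 kb, Lingo1, a neuronal membrane protein that limits myelination, at 53.25 kb, Prdm11 at 25.7 kb and the ribosomal protein gene Rps15a at 114 kb. Only the free bases differed between the 4 elements, and those of ranks 258 and 377 were identical, whereas the ranks themselves ran from 258 to 1493.

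Distal regions were found at every level of enrichment. Their median rank was 1264 (1168 to 1374), and 4 successive bins of 626 ranks held 164, 173, 176 and 164 of them, from the most to the least enriched. One was among the first 10 regions, 13 among the first 50, 24 among the first 100 and 63 among the first 250. Of the distal regions outside genes, 337 (49.8%, 45.9 to 53.6%) were among ranks 1 to 1252, against 208 of the 496 distal regions inside genes (41.9%, 37.6 to 46.4%) and 226 of the 368 regions within 1 kb of a TSS (61.4%, 56.2 to 66.4%). The corresponding median ranks were 1264 outside genes, 1412 (1311 to 1496) inside genes and 945.5 (813 to 1079) within 1 kb. Distance beyond 20 kb made little difference to rank: the median was 1215 for the 214 regions with a TSS at 20 to 50 kb, 1160 for the 177 at 50 to 100 kb, 1337 for the 254 at 100 to 500 kb and 1258 for the 32 beyond 500 kb, and all 4 intervals overlapped.

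The 10 most enriched distal regions showed most of the sequence types found in the whole set. Rank 6 lay 315 kb from the TSS of Nphp4, a gene for a protein of the primary cilium, and held 1 RE1 with 5 mismatches. Rank 11, 22.5 kb upstream of Kcnk9, which encodes a background potassium channel, held 4 RE1s. Ranks 20, 21 and 35 each held 2, at 171 kb from the cartilage matrix gene Matn1, 114 kb from Gm6793 and 25.9 kb from the complement gene C1qa. Rank 22, 99.7 kb upstream of Tcl1, an activator of the kinase Akt that is expressed in ESCs, held 5. Rank 29, 24.95 kb upstream of the centrosomal protein gene Cep70, held 1. Rank 37, 69.3 kb upstream of Rph3a, which encodes the synaptic vesicle protein rabphilin, held both elements with 7 bases between them. Rank 18, 284 kb from the peroxisomal gene Pxmp3, and rank 27, at the miR-290 microRNA cluster, held neither element. A single left element was found at best at rank 47, 96.3 kb from the potassium channel gene Kcnj6, and a single right element at rank 62, 1237 kb from Dnajb9, which encodes a chaperone of the endoplasmic reticulum.

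In base composition the distal regions were far from promoters. Their median GC content was 49.5%, with an interval from 49.1%, against 50.2% inside genes, 60.2% (58.6 to 61.5%) within 1 kb of a TSS and 44.7% in windows of the same width 2 kb to each side of the distal regions. Of the distal regions 16 (2.36%) exceeded 60% GC, compared with 187 of 368 (50.8%) within 1 kb. The ratio of observed to expected CpG dinucleotides had a median of 0.199 in distal regions outside genes, 0.201 inside genes and 0.611 within 1 kb. Widths ranged over 86 to 2246 bp with the median at 261 bp (256 to 266). In the 4 bins of 626 ranks, from the most to the least enriched, the median width was 317.5, 275, 233.5 and 181 bp.

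A full RE1 was present in 406 of the 677 distal regions (59.97%, 56.2 to 63.7%), close to the 58.1% of the whole list. With at most 3 mismatches in place of 5, the share was 32.6%, and that of regions without any element 28.8%. It was found in 327 of 496 distal regions inside genes (65.9%, 61.6 to 70.1%) and in 193 of 368 regions within 1 kb of a TSS (52.4%, 47.2 to 57.6%). Flanking windows rarely held one, 8 of 1339 beside distal regions (0.597%, 0.258 to 1.17%) and 0.923% beside all regions. Of the distal regions 24 had several RE1s, 382 had 1, 24 had both elements at a wider gap, 81 had a left element without these, 56 had a right element only and 110 (16.2%, 13.5 to 19.2%) had none of them. A single left element with at most 1 mismatch was also present in 83 of the 1339 flanking windows (6.20%, 4.97 to 7.63%), against 12.0% (9.62 to 14.7%) of the distal regions. A single right element was present in 9 flanking windows (0.672%), against 8.27% of the distal regions.

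**Figure D1:**
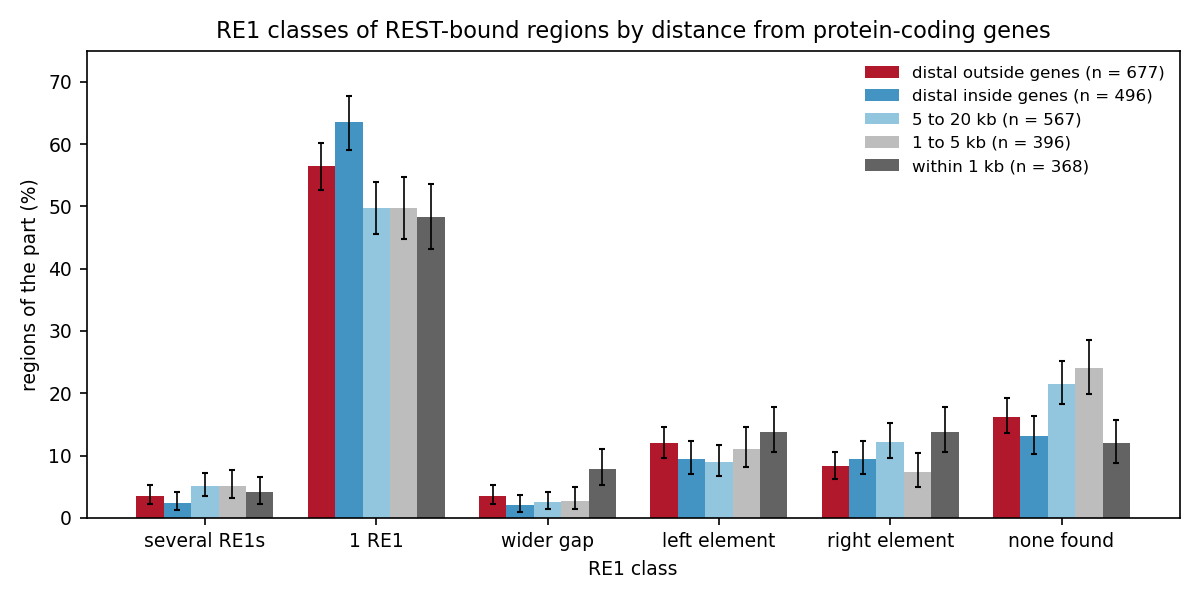
Share of regions (%) in each RE1 class, for the distal regions outside genes and for 4 other parts of the list by distance from a protein-coding TSS. Bars are shares and error bars exact 95% intervals over regions. The class with 1 RE1 held 56.4% of the distal regions outside genes, and the class with none found 16.2%.

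The best RE1 lay near the centre of the region, but mostly to one side of it. Its midpoint was a median of 24.5 bases from the midpoint of the region, and 370 of 406 (91.1%, 87.9 to 93.7%) lay within 50 bases. In 344 of 406 (84.7%, 80.9 to 88.1%) it lay towards the lower coordinate, with a median offset of -22 bases (-26 to -19). The offset was -14 bases (-17 to -11) for the 206 RE1s on the plus strand and -31 bases (-34 to -29) for the 200 on the minus strand. The other regions had the same median of -22 bases (-24 to -20), with 873 of 1048 towards the lower coordinate (83.3%, 80.9 to 85.5%). The cause of this offset was not tested. Over the best RE1s of the distal regions, the consensus base was most constant at positions 7 and 8 of the left element, each found in 405 of 406, at position 13 (404) and at position 16 (403), all counted from the first base of the left element. Position 19 in the right element was the least constant, with the consensus G in 164 of 406 (40.4%, 35.6 to 45.3%) against 46.7% (43.6 to 49.7%) in the other regions. The 2 free bases were not free of preference either. A was the commonest base at position 10 and T at position 11, each in 231 of 406 RE1s (56.9%, 51.9 to 61.8%), against 50.9% and 51.9% in the other regions.

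Enrichment followed the match to the RE1. The median rank was 475.5, 814.5, 831.5, 986, 1001 and 1562 for best RE1s with 0, 1, 2, 3, 4 and 5 mismatches, in 4, 22, 76, 119, 100 and 85 regions. The interval for 5 mismatches (1319 to 1753) was apart from that for 3 (836 to 1134), whereas those for 1 to 4 mismatches overlapped. By class, the median rank was 128 (54 to 588) with several RE1s, 976.5 (231 to 1481) with a wider gap, 1135 (986 to 1224) with 1 RE1, 1472 (1199 to 1717) with a left element, 1688.5 (1240 to 1825) with a right element and 1810.5 (1674 to 1991) with none. The other regions had medians of 85, 726, 1022, 1494, 1638.5 and 1841.5 in the same classes. The share with a full RE1 was 68.3, 71.7, 57.4 and 42.1% in the 4 bins of 626 ranks, from the most to the least enriched, and in the first bin it was below that of the other regions, 68.3% (60.6 to 75.3%) against 77.3% (73.2 to 81.0%), with intervals that overlapped.

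**Figure D2:**
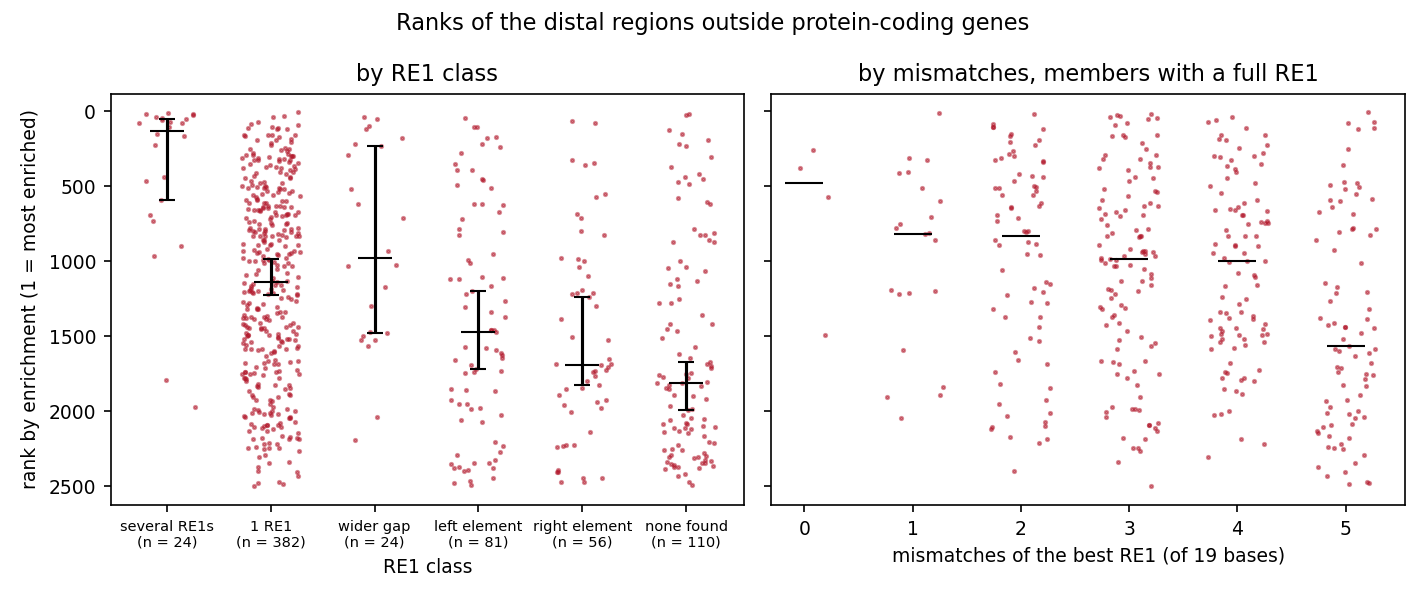
Rank by enrichment (1, the most enriched, at the top) of the 677 distal regions by RE1 class, and of the 406 with a full RE1 by mismatches of the best one. Points are regions, horizontal bars medians, and error bars binomial 95% intervals of the median. The median was 128 with several RE1s and 1810.5 with none found.

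The reverse question, how many RE1s of the genome lay in a listed region, was asked after the values above had been seen. All chromosomes were searched on both strands and each match was placed by the same rule as the regions. Of RE1s that were distal and outside genes, all 4 perfect matches lay in a listed region, as did 22 of 23 with 1 mismatch (95.7%, 78.1 to 99.9%), 76 of 92 with 2 (82.6%, 73.3 to 89.7%), 122 of 267 with 3 (45.7%, 39.6 to 51.9%), 117 of 1728 with 4 (6.77%, 5.63 to 8.06%) and 100 of 14059 with 5 (0.711%, 0.579 to 0.864%). RE1s elsewhere in the genome gave 8 of 8, 62 of 66 (93.9%), 211 of 242 (87.2%), 304 of 593 (51.3%, 47.2 to 55.4%), 301 of 3130 (9.62%, 8.61 to 10.7%) and 280 of 23555 (1.19%, 1.05 to 1.34%). The shares outside genes were lower than elsewhere at 4 and at 5 mismatches by intervals that did not overlap, whereas up to 3 mismatches the intervals overlapped. Up to 2 mismatches, 17 of 119 distal RE1s outside genes were not in a listed region. The right element was read from listed regions elsewhere, so the shares there were not independent of the list.

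**Figure D3:**
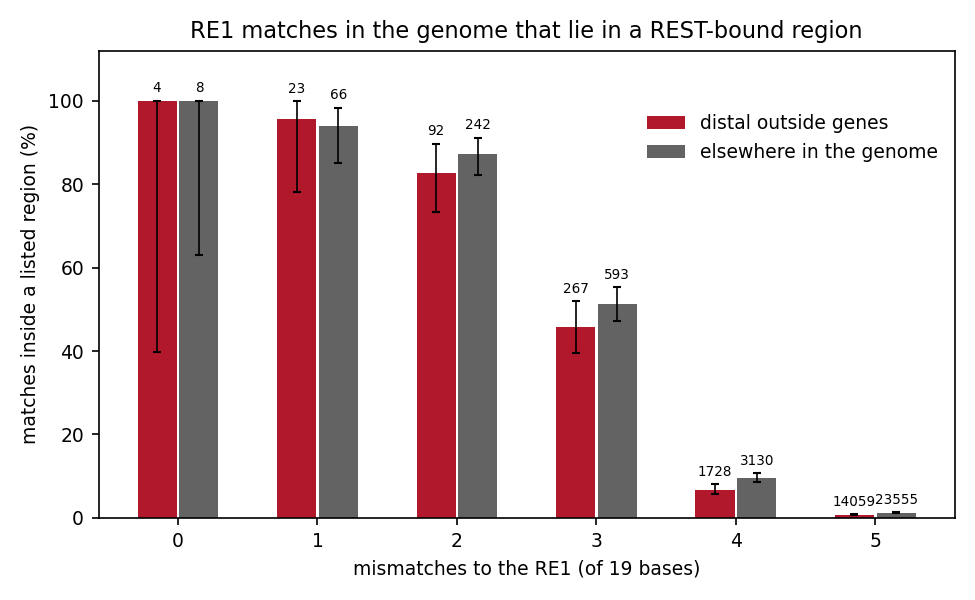
Share (%) of RE1 matches in the genome that lay inside a listed region, by mismatches over 19 bases, for matches that were distal and outside genes and for all others. Error bars are exact 95% intervals and the number above each bar is the number of matches. Of the matches outside genes, 82.6% were listed at 2 mismatches and 0.711% at 5.

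Regions with several RE1s were the most enriched class, and 22 of the 24 (91.7%) were among ranks 1 to 1252. Of the 24, 20 (83.3%, 62.6 to 95.3%) carried all copies on 1 strand, compared with 71 of 76 (93.4%, 85.3 to 97.8%) in the other regions, and among the 18 regions with a pair of RE1s the pair faced the same way in 14. Starts of neighbouring copies were a median of 43 bases apart (range 11 to 136, 35 spacings). The stretch near Kcnk9 is shown as the best ranked of them, and the stretch near Xrcc6bp1 because its copies repeat exactly. Capitals mark the RE1s, with 5 bases kept at each end.
rank 11, chr15:72399082-72399239, minus strand: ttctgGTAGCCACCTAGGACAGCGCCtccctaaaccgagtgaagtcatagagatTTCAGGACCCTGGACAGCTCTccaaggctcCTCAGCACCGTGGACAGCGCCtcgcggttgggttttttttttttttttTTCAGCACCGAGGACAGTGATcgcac
rank 1970, chr10:126118118-126118247, plus strand: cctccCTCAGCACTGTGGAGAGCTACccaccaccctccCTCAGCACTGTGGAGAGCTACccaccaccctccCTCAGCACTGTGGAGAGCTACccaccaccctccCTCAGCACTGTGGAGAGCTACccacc
At rank 11 the 4 copies differed from each other and stood 48, 30 and 49 bases apart. At rank 1970 the 4 copies were identical and stood exactly 33 bases apart, and it was 1 of only 2 of the 24 beyond rank 1252. Of its words of 31 bases, 76.0% occurred more than once in the genome, where copies within the region itself were counted too. Rank 22 near Tcl1 had the most copies, 5 on the minus strand, spaced 94, 118, 47 and 136 bases apart. A further region 43.6 kb from Tcl1, rank 222, held 2 copies on opposite strands.

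In 24 distal regions the elements were separated by more than 2 bases. The gap was 7 bases in 7 of them, 8 in 10, 9 in 4 and 10 in 3, although gaps of 3 to 20 bases had been allowed. Of the other regions 64 had a wider gap, of 7 to 11 bases, with 15, 18, 17, 13 and 1 regions at 7, 8, 9, 10 and 11 bases. An example of each gap is shown, the best ranked of its length, with the elements in capitals.
gap of 7, rank 37, chr5:121528753-121528778, minus strand: TTCAGCACTgccaggaGGACAGCTCC
gap of 8, rank 101, chr11:55624408-55624434, minus strand: TTCAGTACCacatggctGGACAGCACC
gap of 9, rank 52, chr4:139995986-139996013, minus strand: TTCAGCACCccagcattgGGACAGCTCC
gap of 10, rank 1022, chr15:86503691-86503719, plus strand: GTCAGCACCgcgtgcctctGGACAGCTCC
The share of regions with a wider gap was 3.55% (2.28 to 5.23%) in distal regions outside genes, against 2.02% inside genes, 2.47% at 5 to 20 kb, 2.78% at 1 to 5 kb and 7.88% (5.34 to 11.1%) within 1 kb of a TSS. Only the last of these had an interval apart from that of the distal regions outside genes. None of the 1339 flanking windows held both elements at such a gap.

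A group of distal regions carried the left element again and again at a fixed step. This was noticed after the sequences had been read. Of the distal regions 20 (2.95%, 1.81 to 4.53%) had 3 or more left elements on 1 strand, against 16 of the 1827 other regions (0.876%, 0.501 to 1.42%) and none of 4986 flanking windows. By distance the share was 1.23% (0.498 to 2.53%) at 5 to 20 kb, 0.758% (0.157 to 2.20%) at 1 to 5 kb and 0.815% (0.168 to 2.36%) within 1 kb. These intervals overlapped that of the distal regions outside genes, while that of distal regions inside genes (0.605%, 0.125 to 1.76%) was apart. In 15 of the 20 a left element was followed, 9 bases after its end, by the first 6 bases of the right element with at most 1 mismatch, GGACAG in the consensus. These 15 are 2.22% (1.25 to 3.63%) of the distal regions, against 3 of the 1827 others (0.164%, 0.0339 to 0.479%). Of these 3, ranks 688 and 1593 lay just under the 20 kb limit, 16.3 and 19.1 kb from a TSS, and rank 365 lay 0.269 kb from one. The stretch at rank 172 is shown as the best ranked of the 15, and that at rank 1459 for its 7 left elements, the most. That at rank 1116 is an example with steps of 29 bases throughout, as also found at ranks 616 and 2346. Left elements and starts of right elements are in capitals.
rank 172, chr12:25110001-25110125, minus strand: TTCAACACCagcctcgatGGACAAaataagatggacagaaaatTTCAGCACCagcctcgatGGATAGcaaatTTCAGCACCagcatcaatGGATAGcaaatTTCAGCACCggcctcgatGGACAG
rank 1116, chr7:10910942-10911110, plus strand: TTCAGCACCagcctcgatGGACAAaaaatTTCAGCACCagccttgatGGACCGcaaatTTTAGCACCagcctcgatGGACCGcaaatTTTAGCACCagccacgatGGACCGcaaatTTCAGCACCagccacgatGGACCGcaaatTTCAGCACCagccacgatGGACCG
rank 1459, chr6:58280870-58281073, minus strand: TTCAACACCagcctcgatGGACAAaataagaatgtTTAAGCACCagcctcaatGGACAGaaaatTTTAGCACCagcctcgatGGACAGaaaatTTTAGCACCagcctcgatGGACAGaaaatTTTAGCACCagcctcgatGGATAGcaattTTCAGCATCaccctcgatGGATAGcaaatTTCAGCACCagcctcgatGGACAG
The 15 regions held 69 left elements, of which 62 had the right start 9 bases on, and 42 of the 54 steps between neighbouring left elements were exactly 29 bases. In 14 of the 15 no full RE1 was found with the canonical gap of 2 bases, the exception being rank 1319. A gap of 9 bases is also among those found in single wide-gap RE1s, but the criteria differ. Those were required to have the whole right element with at most 1 mismatch, and these units only its first 6 bases.

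These repeats lay on 9 chromosomes, between 22.6 and 580 kb from a protein-coding TSS, and their ranks ran from 172 to 2476 with a median of 1199, 8 of them among ranks 1 to 1252. Nearby genes included Vmn1r66 and Vmn1r29, which encode vomeronasal receptors, and Nlrp9a, a gene of the NLR family. These genes were named after the values were seen. Of the 15, 11 shared words of 31 bases with each other and with 1 region outside the set, in a single group of 12. The share of words that occur more than once in the genome was 38.4% at rank 172, 68.6% at rank 1116, 72.9% at rank 1459 and 73.6% at rank 952. Copies within the same region were included, and how much of each share they made up was not counted. In the whole genome, 34 stretches held 3 or more such units with neighbouring starts at most 60 bases apart, and 31 of these were distal and outside genes. Of the 31, 13 (41.9%, 24.5 to 60.9%) overlapped a listed region, against 2 of the 3 elsewhere. According to the methods only reads that mapped to a single place were kept, and whether the unlisted stretches could be mapped uniquely was not tested.

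**Figure D4:**
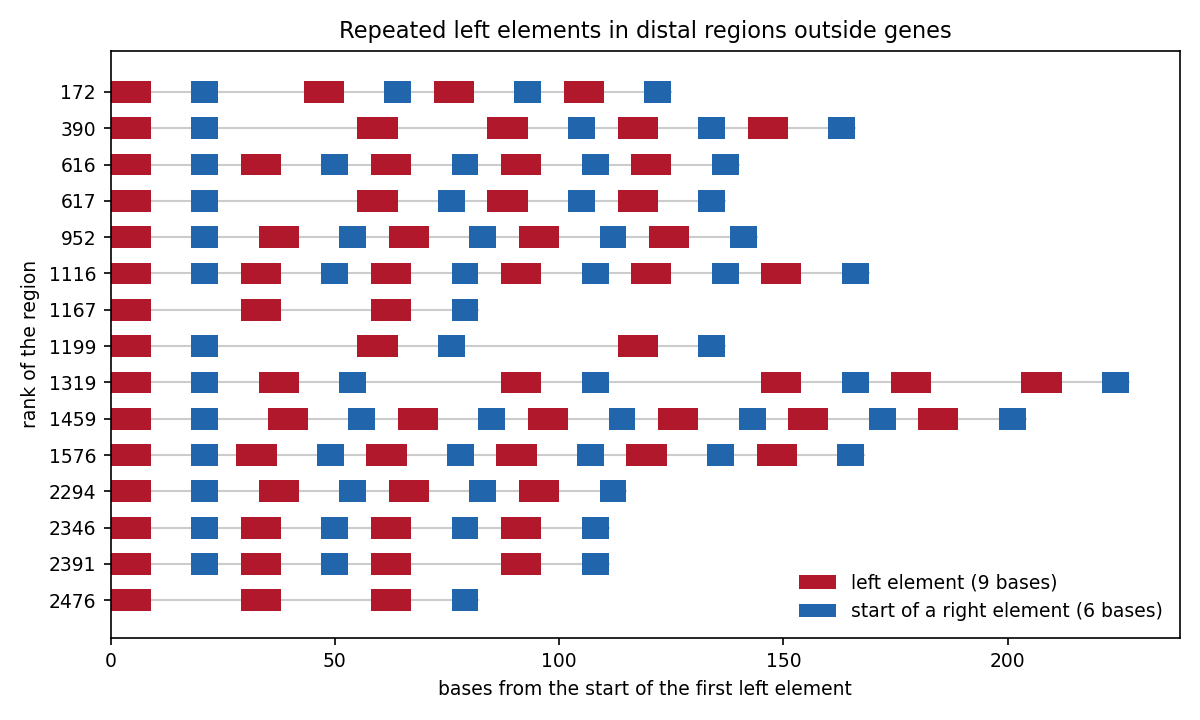
Positions of left elements (9 bases) and of starts of right elements (6 bases) in the 15 distal regions with repeated left elements, in bases from the first left element, 1 line per region labelled with its rank. Neighbouring left elements stood 29 bases apart at 42 of 54 steps.

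Exact copies of whole words were then counted in all regions. A copy inside the same region counted as well, so tandem repeats raise the share. More than 25% of the words of 31 bases had another exact copy in the genome in 28 of the 677 (4.14%, 2.77 to 5.92%), against 31 of the 1827 other regions (1.70%, 1.16 to 2.40%). By distance the share was 1.61% (0.699 to 3.15%) in distal regions inside genes and 2.82% (1.62 to 4.54%) at 5 to 20 kb, both with intervals that overlapped that of the distal regions outside genes, and 1 of 368 within 1 kb of a TSS. Of the 28, 12 were among the 15 with repeated left elements. Without those, a count made after the values were seen, 16 of 662 remained (2.42%, 1.39 to 3.90%), against 29 of 1824 (1.59%, 1.07 to 2.28%), and the intervals overlapped. Of the 28, 14 were in the class with a left element and 7 in the class with none. Of the 677, 570 (84.2%, 81.2 to 86.9%) had no copied word at all, against 89.3% (87.8 to 90.7%) of the other regions. By distance it was 90.5% (87.6 to 93.0%) in distal regions inside genes and 95.4% (92.7 to 97.3%) within 1 kb, with intervals apart. At 5 to 20 kb it was 84.8% and at 1 to 5 kb 88.6% (85.1 to 91.6%), with intervals that overlapped. The best ranked of the 28 was rank 18, with 53.2% of its words copied, and ranks 150 (90.1%), 188 (32.7%) and 305 (79.1%) were others without any RE1 element. Ranks 150 and 305 shared words with each other, and their ratios of observed to expected CpG were 1.10 and 1.08, whereas the median of all distal regions was 0.199.

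The 110 distal regions without an RE1 element lay near long non-coding RNA or miRNA genes more often than those with exactly 1 RE1. A TSS of a long non-coding RNA or miRNA gene was within 20 kb of 32 of the 110 (29.1%, 20.8 to 38.5%), against 41 of the 382 with 1 RE1 (10.7%, 7.81 to 14.3%). Without the regions of the Malat1 and Neat1 clusters and of the miR-290 cluster, a count made after the values were seen, it was 22 of 100 (22.0%, 14.3 to 31.4%), whose interval was apart from that of the regions with 1 RE1 by a narrow margin. In the other regions the shares were 63 of 326 without an element (19.3%) and 147 of 972 with 1 RE1 (15.1%, 12.9 to 17.5%). Of the distal regions as a whole, 78 (11.5%, 9.21 to 14.2%) had a long non-coding RNA TSS within 20 kb, against 234 of the 1827 other regions (12.8%, 11.3 to 14.4%). A miRNA TSS was within 20 kb of 32 (4.73%, 3.26 to 6.61%), against 79 of the others (4.32%, 3.44 to 5.36%). A non-coding TSS of any type was near 160 (23.6%, 20.5 to 27.02%), against 26.3% (24.3 to 28.4%) of the other regions. In all 3 comparisons the intervals overlapped. The midpoint was inside a long non-coding RNA gene in 54 (7.98%, 6.05 to 10.3%), against 67 of the 1827 other regions (3.67%, 2.85 to 4.63%). The share was 6.31% (4.13 to 9.18%) at 1 to 5 kb and 4.89% (2.92 to 7.62%) within 1 kb, with intervals that overlapped that of the distal regions, and 2.29% at 5 to 20 kb and 2.22% in distal regions inside genes. The rule that excludes spans of protein-coding genes bears on this comparison.

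The widest distal regions were mostly at non-coding genes. A non-coding gene was counted as near if a long non-coding RNA or miRNA TSS lay within 20 kb or the midpoint was inside a long non-coding RNA gene. Of 7 distal regions wider than 600 bp, 6 had such a gene near and none had a full RE1. Of 27 regions of that width in the rest of the list, 9 had such a gene near and 8 a full RE1. The width limit was chosen after the values were seen. The widest, 2246 bp at rank 27, and the second, 1215 bp at rank 453, lay at the miR-290 cluster. Rank 607 (1120 bp) lay 2.50 kb from the TSS of Snhg5, a host gene of small nucleolar RNAs, and ranks 239, 232 and 106 (821, 617 and 765 bp) lay at Neat1 and Malat1, the genes of abundant nuclear RNAs of paraspeckles (Neat1) and speckles (Malat1). The exception was rank 354 (835 bp), near Fcgr1, whose nearest long non-coding RNA TSS, that of Gm17580, lay 21020 bp away, just beyond the limit. Whether wide regions without an RE1 would also stand out in the input DNA was not tested, since the input was not analysed here.

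**Figure D5:**
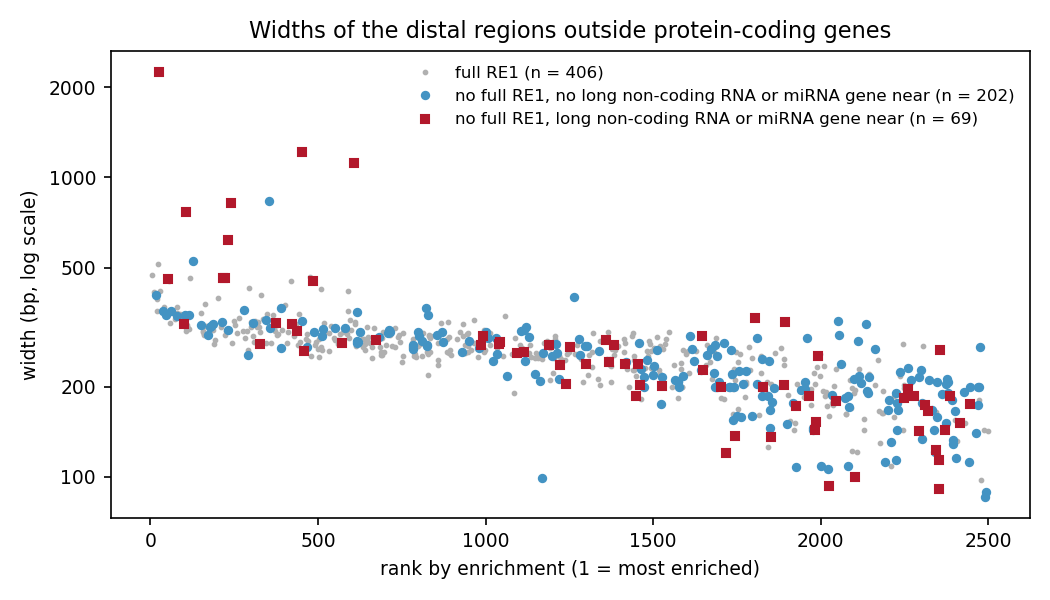
Width (bp, log scale) against rank by enrichment for the 677 distal regions, with and without a full RE1 and with or without a long non-coding RNA or miRNA gene near (TSS within 20 kb, or midpoint inside a long non-coding RNA gene). The 406 regions with a full RE1 stayed below 600 bp, and 6 of the 7 regions above it had such a gene near.

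The Malat1 and Neat1 loci on chromosome 19 formed the 2 largest clusters of regions within 10 kb of each other. At Malat1 there were 5 regions over 5.07 kb, with ranks 106, 1743, 1829, 2046 and 2371, and at Neat1 5 over 3.73 kb, with ranks 232, 239, 1805, 1966 and 2248. None of the 10 had a full RE1, 3 had a left element, and 7 had neither element. The next clusters were unlike them. At 84537751 to 84543075 on chromosome 11, 90.1 kb or more from Mrm1, 3 regions over 5.05 kb each held 1 full RE1 (ranks 439, 828 and 1014), and at Mir124a-3 on chromosome 2 there were 3 over 9.09 kb (ranks 491, 1374 and 1448), 2 of them with a full RE1. In all, 69 of the 677 (10.2%, 8.02 to 12.7%) had another listed region within 10 kb, in 32 clusters, 28 of which were pairs. The share was 10.6% in the other regions and 6.05% (4.12 to 8.52%) in distal regions inside genes, and it was 4.90% among the distal regions over 100 kb from a TSS. Members of a cluster are not independent of each other, and whether some are 1 site listed more than once was not tested.

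Some distal regions lay near genes of miRNAs that are known from neurons. By sequence, 26 of the 1005 hairpins in the RefSeq table (GRCm38.p6) could be placed within 20 kb of 16 distal regions (2.36%, 1.36 to 3.81%), against 70 of the 1827 other regions (3.83%, 2.999 to 4.82%) and 28 of 396 at 1 to 5 kb (7.07%, 4.75 to 10.1%). By this placement the share of the distal regions was not above that of the other regions. By GENCODE there was a miRNA gene within 20 kb of 32 distal regions (4.73%, 3.26 to 6.61%). The share in the other regions was 79 of 1827 (4.32%, 3.44 to 5.36%), and the intervals overlapped. Of the 32 distal regions, 18 had a miRNA symbol as the nearest and 14 only a clone name, which is not printed. The mature sequences of the miRNAs described here are shown from RefSeq, 5′ to 3′, with the seed (bases 2 to 8) in capitals.
miR-9-5p: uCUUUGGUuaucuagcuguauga
miR-137-3p: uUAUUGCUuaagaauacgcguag
miR-129-5p: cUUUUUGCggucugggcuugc
miR-138-5p: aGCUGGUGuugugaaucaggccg
miR-29a-3p: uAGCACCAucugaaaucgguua
miR-29b-3p: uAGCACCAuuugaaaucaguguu
miR-182-5p: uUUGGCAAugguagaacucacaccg
miR-96-5p: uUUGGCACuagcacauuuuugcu
miR-294-3p: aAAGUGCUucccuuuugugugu
miR-295-3p: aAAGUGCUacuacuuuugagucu
miR-290a-3p: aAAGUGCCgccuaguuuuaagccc
miR-29a-3p and miR-29b-3p share the seed AGCACCA, and miR-294-3p and miR-295-3p share the seed AAGUGCU.

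miR-9, which acts in neural progenitors, is made from several genes, and distal regions lay at 2 of them. Rank 167, with 1 RE1, was 5.46 kb downstream of the Mir9-1 hairpin and 5.89 kb downstream of that of Mir3093. Ranks 572 and 1372 lay 5.84 and 2.87 kb upstream of Mir9-3, the first with a right element only and the second with 1 RE1. At Mir124a-3, one of the genes of the neuronal miRNA miR-124, rank 1374 lay 0.528 kb downstream and held an RE1 with 2 mismatches, while ranks 1448 and 491 lay 2.29 and 8.565 kb upstream, without an element and with an RE1 of 5 mismatches. Rank 1384, with a right element, lay 5.12 kb upstream of Mir124a-1. Mir137, a regulator of neuronal maturation, had rank 925 with 1 RE1 at 2.24 kb upstream of its hairpin.

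Mir129-2, a brain miRNA, had rank 1041, without an element, at 1.32 kb downstream and rank 221, with a left element, at 4.18 kb upstream, and Mir670 was 15.8 kb from rank 221. Mir138-1 was 19.1 kb from rank 993 (left element). Outside the nervous system, Mir133a-2, a muscle miRNA, had ranks 459 (left element) and 479 (1 RE1) at 12.8 and 19.5 kb downstream. The hairpins of Mir29a and Mir29b-1 were 9.56 and 9.91 kb from rank 1510 (1 RE1). Those of Mir182 and Mir96, miRNAs of sensory cells, were 6.37 and 9.92 kb from rank 2344, without an element. Mir8103 was 15.2 kb from rank 186, Mir6408 8.40 kb from rank 891, Mir1971 11.7 kb from rank 1526, Mir7046 19.5 kb from rank 581, Mir1957 8.545 kb from rank 2259 and Mir466f-4 14.6 kb from rank 1189. Of these, ranks 186 and 891 held 1 RE1, and ranks 1189 and 1526 a right element.

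The miR-290 cluster, whose miRNAs are abundant in ESCs, differed from the neuronal miRNA genes in that REST regions overlapped the hairpins. Rank 453 (chr7:3218572-3219787) spanned those of Mir290a, Mir290b, Mir292, Mir292b and Mir291b, and rank 27 (chr7:3220362-3222608) those of Mir294 and Mir295 and part of that of Mir293, which begins before the region. A further region, rank 1646, lay 17.1 kb upstream of Mir290a. None of the 3 held an RE1 element. These 8 were the only hairpins of the RefSeq table that a distal region overlapped.

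Besides these, the best ranked distal regions near a long non-coding RNA TSS were led by regions with RE1s. Rank 22 lay 14.2 kb from 2810011L19Rik, rank 52 (wider gap) 2.16 kb inside Gm13026, rank 73 (2 RE1s) 16.9 kb inside C230014O12Rik, rank 78 (2 RE1s) 5.81 kb from Gm13589 and rank 87 (1 RE1) 19.3 kb from A930011O12Rik. Rank 94 (1 RE1) was 2.69 kb inside Gm17704, rank 106 was at Malat1, rank 167 6.58 kb inside Gm3764, rank 191 (1 RE1) 19.3 kb from Gm14343 and rank 218 0.922 kb inside Gm3294. Rank 218 had both elements 7 bases apart, and of these 10 only rank 106 had neither both elements nor a full RE1.

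The genes nearest to distal regions were many: 541 genes were the nearest to the 677 regions, 439 of them to 1 region only. Of all 22372 protein-coding genes, 770 (3.44%) had a distal region outside genes within 100 kb of a TSS. Among lists of genes set up for this comparison, the share was 7 of 30 transcription factors of neural development (23.3%, 9.93 to 42.3%), including Lhx2 (rank 78), Nr2f1 (565) and Onecut2 (1131), all regulators of neural patterning. It was 5 of 28 ion channels (17.9%, 6.06 to 36.9%), including Kcnj6 (47), an inward rectifier that G proteins open, the calcium channel gene Cacna1a (620) and the sodium channel gene Scn8a (716). Without the inward rectifiers, which are not gated by voltage, it was 4 of 26 (15.4%, 4.36 to 34.9%). Of genes for synaptic vesicle release it was 3 of 30 (10%, 2.11 to 26.5%), Rph3a (37), the vesicular GABA transporter Slc32a1 (244) and the calcium sensor Syt7 (2372). Of 26 pluripotency genes 5 had one (19.2%, 6.55 to 39.4%), among them Tcl1 (22), Nanog and Dppa3, which shared rank 159, and Esrrb (349).

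The remaining lists had 2 genes each. These were Glra1 (447) and Gabra2 (2092) of 31 neurotransmitter receptors, Pcsk2 (1307), a prohormone convertase, and Cartpt (2176) of 22 genes for neuropeptides and granules, Nfasc (518) and Nefm (2076) of 35 for adhesion, axon and cytoskeleton, and Psmb2 (79) and Tbp (1422) of 28 housekeeping genes. All 8 lists had shares above 3.44%, also that of housekeeping genes (7.14%, 0.877 to 23.5%). The intervals of the channel, neural transcription factor and pluripotency lists lay above 3.44%, while those of the other lists included it. These 3 intervals overlapped that of the housekeeping genes, and no enrichment was tested. A gene can share its region with its neighbours, the nearest gene need not be regulated from the region, and the lists were chosen with results of these data known. Nothing in the list of regions gives the expression of a gene.

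At the ends of the distance scale, the farthest regions were in gene deserts. Rank 1733 was 1943 kb from Cdh20, rank 62 1237 kb from Dnajb9, rank 1660 1083 kb from Igsf11, rank 1237 953 kb from Cdh8 and rank 1522 859 kb from Ryr2. Cdh20 and Cdh8 encode cadherins, Igsf11 an adhesion protein and Ryr2 a calcium release channel of heart and brain. Only ranks 1237 and 1522 held a full RE1, and ranks 62, 1660 and 1733 had a single element. The median distance was 82.2 kb, and the median number of protein-coding genes within 1 Mb was 17 (16 to 18), against 18 around distal regions inside genes and 30 around regions within 1 kb of a TSS. Just inside the 20 kb limit lay ranks 485 (Kif2c, 20.06 kb), 1753 (BC027582, 20.2 kb) and 156 (Trappc8, 20.3 kb), and just outside it ranks 1066 (Cldn26, 19.96 kb), 2158 (Cidea, 19.955 kb) and 2459 (Dyrk1a, 19.9 kb). Of these 6, ranks 1753 and 156 held 1 RE1 and the others no element.

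The 5 least enriched distal regions were narrow. They were ranks 2499 (142 bp, near Zic4), 2492 (89 bp, Zfp532), 2490 (86 bp, Cdh5), 2487 (144 bp, Arrdc4) and 2479 (98 bp, Gm10113), and 3 of them, ranks 2499, 2487 and 2479, held 1 RE1. Across the chromosomes that held a listed region, the density ran from 0.0247 distal regions per Mb on X to 0.464 on chromosome 19. The value of chromosome 19 includes the Malat1 and Neat1 clusters. No region was listed on Y. The X chromosome held 4 (0.591%, 0.161 to 1.51%), although it has 6.34% of the known bases of the genome, and 19 of the 1827 other regions (1.04%, 0.627 to 1.62%). They were ranks 1310 (near Gm15262) and 2305 (Cdr1), with 1 RE1 each, 2134 (Pak3, a neuronal kinase gene), without an element, and 2476 (Ssxb3), with repeated left elements.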

How the data were processed

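REST ChIP DNA from wild type ESCs, pooled over technical and biological replicates, was read on a Genome Analyzer II. The list deposited by the authors holds mm9 positions and 1 score per region, its rank, without height, fold or p. The study's methods name Bowtie with uniquely mapped reads and regions shared by PeakRanger and MACS, but BWA is named in the submitters' processing notes. Versions, and whether the list is that overlap, are not given in the sources used here. The list is longer than the set of target regions described in the study, and which of its regions belong to that set could not be told. Where only uniquely mapped reads were kept, repeated sequence may be missing.

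Starts were read as counting from 0, which was not stated, and coordinates of sequence elements count from 1, while those of regions are as deposited. Sequence came from NCBIM37 (mm9) and genes from GENCODE M1. Positional classes, RE1 classes, copies of words and distances were computed with Python 3.11.15, NumPy 2.4.6, pandas 2.3.3, SciPy 1.17.1 and Matplotlib 3.10.9. Of 200 RE1s planted in simulated sequence 200 were recovered. Single elements were allowed 1 mismatch, and the left element took precedence over the right. The left class may therefore include a right element elsewhere.

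The regions, the 8 gene lists (230 genes, all matched) and the rule for named regions were chosen with earlier results of these data known. The rule named the 10 best ranked regions, the best of each class, perfect RE1s, regions near miRNA genes, the 10 best near long non-coding RNAs, the 5 farthest and the 5 lowest, the largest cluster, those on X and 3 at each side of the limit, and up to 3 genes of each list. The H3K27me3 and input samples were not analysed here.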

Additional observations from a re-analysis of the deposited data

How the results depend on the processing

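Of 48 alternatives, 29 left the value within its interval or, for counts, within 1.5 times, including all 7 that left out the 10 widest regions, which were added after the data had been seen. With distal set at over 50 kb the share with a non-coding TSS was 17.7%, that with a listed region within 10 kb 6.05% and the median GC content 49.1%. With over 100 kb there were 286 regions, and these values were 13.6%, 4.90% and 48.3%. Among ranks 1 to 1252 there were 337 regions, with a full RE1 in 70.0% and a neighbour in 5.64%. With at most 3 mismatches the full RE1 share was 32.6% and that without an element 28.8%, and with at most 6 they were 72.1% and 12.1%. Neighbours within 2 kb were found for 3.84% and within 50 kb for 29.1%, and a non-coding TSS within 5 kb for 9.31%. A window of 200 bases gave a median GC content of 50.5%, and 295 genes had a distal region within 50 kb. The cause of these moves was not tested. No paired analysis was possible because there is 1 library. The study gives a total of aligned reads for the library, but the list holds no reads per region, so what depth limits at a single region could not be assessed.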

Other observations

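Short words bound by other factors were rare in the distal regions, searched on both strands. A GC box (GGGCGGGG), a word of promoters, occurred in 9 of 677 (1.33%, 0.610 to 2.51%), against 114 of 1827 other regions (6.24%, 5.17 to 7.45%) and 13 of 1339 flanking windows of the distal regions (0.971%). The octamer ATGCAAAT, read by POU factors such as Oct4, occurred in 9 (1.33%, 0.610 to 2.51%), against 12 of the other regions (0.657%, 0.340 to 1.14%) and 24 flanking windows (1.79%). Of the 110 distal regions without an RE1 element, 3 held the octamer (2.73%, 0.566 to 7.76%), against 4 of the 406 with a full RE1. In the other regions without an element it was found in 0 of 326 (upper limit 1.13%). Among the 3 was rank 126 near Wdr95, 527 bp wide, which was picked after its values were seen. The CTCF core (AGGGGGCG) was in 4 distal regions (0.591%, 0.161 to 1.51%), 33 other regions (1.81%, 1.25 to 2.53%) and 3 flanking windows (0.224%). The Esrrb word (TCAAGGTCA) was in 2 (0.295%), 12 (0.657%) and 11 (0.822%), in the same order. The ETS word (CCGGAAGT) was in 3 (0.443%), 9 (0.493%) and 5 (0.373%), and the NRF1 word (GCGCATGCG) in 2 (0.295%), 6 (0.328%) and 0. A match is a description and not evidence that the factor was bound.

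The 15 bases on each side of an RE1 were also compared between regions, after the sequences had been seen. At least 24 of these 30 bases were identical in another listed region for 3 of 406 distal RE1s (0.739%, 0.153 to 2.14%), against 15 of 1048 RE1s of the other regions (1.43%, 0.803 to 2.35%). The unlisted distal RE1 with the best match was a site with 1 mismatch at 6:107365959 to 107365979, 114 kb from a protein-coding TSS.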
